A study of Mus musculus with 2 samples.

Results

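The genes described here are 4 secreted or membrane-bound ligands with which stromal cells of the bone marrow hold and feed blood cells (Cxcl12, Kitl, Il7 and Angpt1) and 4 receptors for such ligands (Cxcr4, Ackr3, Kit and Il7r). They were taken by gene symbol, as 8 of the 32285 genes of each matrix, and all 8 had at least 1 unique molecular identifier (UMI, a tag that marks 1 captured RNA molecule) in both libraries. Both single-cell RNA-seq libraries came from fracture callus, the repair tissue that bridges a broken bone, of wt mice with a femoral fracture. The study's methods give the animals as 12-week-old males of the C57BL/6J strain. Calluses of 5 mice at 10 days and of 5 mice at 20 days after fracture were collected, and the labels do not say which library, MGJ or MGJ2, holds which day, nor whether a library pools animals. The libraries were therefore described side by side, each on its own, with no test between them. They could not be called replicates, so a difference between them cannot be told apart from a difference in time, animal or handling.

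After barcodes with under 200 genes or over 20% mitochondrial UMIs and doublet calls had been left out, MGJ held 12947 cells with a median of 5531 UMIs, and MGJ2 held 7568 cells with a median of 4920. The 2 barcode lists shared 19 barcodes, 13 of them among the kept cells. Cells were put into classes by marker genes, and 18 classes of MGJ and 14 of MGJ2 reached 50 cells, 12 of them in both. All 10 endothelial markers were higher in the endothelial-like class than in the other cells in each library, as were all 12 chondrocyte markers in the chondrocyte-like class. The same marker lists had named the clusters, so these counts describe the classes and are no separate check of the names. Among classes of 50 cells or more, markers fell short in dendritic-like cells (8 of 9 higher in each library) and, in MGJ, in monocyte-like cells (8 of 9), macrophage-like cells (9 of 10) and pericyte and smooth muscle-like cells (8 of 9). Of the smaller classes of MGJ2, the 4 tendon fibroblast-like cells had 3 of 7. The makeup of the libraries differed. MGJ held 2886 chondrocyte-like, 481 fibroblast-like and 464 tendon fibroblast-like cells, and its stromal classes together counted 4038 cells against 4362 blood cells. MGJ2 held 207 stromal cells, 160 of them chondrocyte-like, against 7109 blood cells, so a stromal level there rests on few cells. In MGJ, 4296 cells, mostly in clusters with few UMIs that were led by neutrophil genes, were left unnamed. No cluster was named as stem cells, megakaryocytes or innate lymphoid cells.

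CXCL12 is a chemokine that holds blood stem cells, B cell precursors and neutrophils in the marrow through the receptor CXCR4, and ACKR3 binds the same chemokine without signalling through G proteins and removes it. Kit ligand, the product of Kitl, acts on stem cells, mast cells and early progenitors through the receptor tyrosine kinase KIT. IL-7 sustains early B cells and T cells through the receptor that Il7r encodes, and angiopoietin 1, the product of Angpt1, binds the receptor TIE2 (gene Tek) on endothelial cells. In marrow, reticular stromal cells around the sinusoids, marked by Lepr and Adipoq, are known as the main source of CXCL12 and Kit ligand.

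In the GRCm38 mouse genome, the build of the files, all 8 are protein-coding genes. Cxcl12 lies on the plus strand at chr6:117168535-117181367, Kitl on the plus strand at chr10:100015630-100100416, Il7 on the minus strand at chr3:7569994-7613760 and Angpt1 on the minus strand at chr15:42424723-42676977. Cxcr4 lies on the minus strand at chr1:128588199-128592293, Ackr3 on the plus strand at chr1:90203980-90216751, Kit on the plus strand at chr5:75574916-75656722 and Il7r on the minus strand at chr15:9505788-9530176. UMIs were counted from the 3′ ends of transcripts, so the counts do not separate the membrane-bound and the soluble form of Kit ligand, or the splice forms of Cxcl12.

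Cxcl12 and its 2 receptors had their highest levels in different classes of the callus, although some cells held Cxcl12 and a receptor together. The 250 bases before their RefSeq starts (GRCm38.p6) are shown for that reason, 5′ to 3′ on the strand of each gene. The windows are chr6:117168285-117168534 on the plus strand for Cxcl12, chr1:128592300-128592549 on the minus strand for Cxcr4 and chr1:90203730-90203979 on the plus strand for Ackr3. Capitals mark matches, on either strand, to the TATA box letters TATAAA and the GC box letters GGGCGG. The motif of EBF factors, which act in reticular stroma and B cells, was searched in the same way.
Cxcl12: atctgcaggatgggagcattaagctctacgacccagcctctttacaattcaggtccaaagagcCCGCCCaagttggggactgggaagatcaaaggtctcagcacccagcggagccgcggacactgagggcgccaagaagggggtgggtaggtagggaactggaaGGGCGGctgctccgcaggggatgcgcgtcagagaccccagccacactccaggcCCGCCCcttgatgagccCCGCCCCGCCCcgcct
Cxcr4: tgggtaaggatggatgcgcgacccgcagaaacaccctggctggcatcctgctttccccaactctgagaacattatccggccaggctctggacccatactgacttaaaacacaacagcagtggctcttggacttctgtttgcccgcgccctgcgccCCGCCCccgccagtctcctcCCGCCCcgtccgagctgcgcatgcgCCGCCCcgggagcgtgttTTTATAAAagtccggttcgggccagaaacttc
Ackr3: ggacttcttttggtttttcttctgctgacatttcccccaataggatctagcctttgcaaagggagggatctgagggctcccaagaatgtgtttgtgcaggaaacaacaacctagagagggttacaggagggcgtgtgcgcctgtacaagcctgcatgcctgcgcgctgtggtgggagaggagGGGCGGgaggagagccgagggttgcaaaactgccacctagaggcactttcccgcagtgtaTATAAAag
The Cxcl12 window held 5 GGGCGG matches, starting 187, 86, 33, 16 and 11 bases before the start, the last of which overlaps its neighbour, and no TATAAA. The Cxcr4 window held TATAAA at 32 and 30 bases, which is 1 run read on both strands, and GGGCGG at 95, 75 and 50 bases. The Ackr3 window held 1 TATAAA at 8 bases and 1 GGGCGG at 68 bases. Of all 32851 RefSeq promoter windows of this length, 12.4% held TATAAA, 32.7% held GGGCGG and 0.779% held the EBF motif, which none of these 3 windows held. G and C made up 64.4% of the Cxcl12 window, 61.2% of the Cxcr4 window and 54% of the Ackr3 window, against a median of 52.4% over all windows. A window was listed for 6 of the 8 genes.

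Levels are given as UMIs per 1000000 UMIs of a class (CPM), with an exact Poisson 95% interval in brackets. Ratios of levels carry an exact conditional binomial 95% interval. Both cover counting error only: cells of 1 class also differ among themselves, and a library stands for itself. Levels of different genes were not compared with each other.

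Cxcl12, the retention chemokine, was read mainly from fibroblast-like cells in MGJ and from 18 marrow reticular-like cells in MGJ2. In MGJ the fibroblast-like class stood at 924 CPM (903 to 945), with a UMI in 442 of its 481 cells, and held 7462 of the 9933 Cxcl12 UMIs, or 75.1%. The endothelial-like class followed at 205 CPM (188 to 224), then the pericyte and smooth muscle-like class at 93.0, the tendon fibroblast-like class at 65.3, the chondrocyte-like class at 19.0 and the osteoblast-like class at 9.18. Within these 6 classes each was told apart from the next by the interval of their ratio. Osteoblast-like cells were not told apart from pro-B and pre-B cell-like cells, next in the order, with a ratio of 1.76 (0.492 to 7.84). No blood class of 50 cells or more passed 5.21 CPM in this library. Fibroblast-like over chondrocyte-like cells gave a ratio of 48.5 (45.6 to 51.7). The fibroblast-like class was the cluster led by Ereg, Sfrp1 and Clec3b, with Cxcl5 and Ptx3 also among its leading genes. Clusters of 125 and 87 cells of MGJ whose best list was fibroblast were left unnamed. All 4296 unnamed cells of MGJ together held 105 Cxcl12 UMIs, so the 924 CPM does not stand for all fibroblasts of the callus.

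MGJ2 had only 1 fibroblast-like cell, with 2 Cxcl12 UMIs, so the main class of MGJ could not be compared there. In MGJ2, 18 cells held 2348 of the 2914 Cxcl12 UMIs, or 80.6%, with a UMI in 17 of the 18 cells and a level of 11815 CPM over the group. Cell by cell the level ran from 0 through a median of 18071 to 34716 CPM, and the cell with the most held 394 UMIs. These cells carried 5 of 6 marrow reticular markers, with Lepr (leptin receptor) at 433 CPM, Adipoq (adiponectin) at 961, Ebf3 at 277, Foxc1 at 221 and Agt (angiotensinogen) at 428, while Cbln1 was at 0. Cxcl12 itself is among the genes that lead this cluster, although the 8 genes were kept out of the clustering. The class has under 50 cells, and its share of mitochondrial UMIs ran from 4.51% to 15.2%. At a limit of 10% mitochondrial UMIs 16 of the 18 remained and their cluster was no longer named, and when each library was clustered alone all 18 fell into a pericyte and smooth muscle-like cluster. In MGJ only 5 cells were marrow reticular-like, with 2 of the 6 markers higher than in other cells, and 45 of their 47 Cxcl12 UMIs lay in 1 cell.

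Apart from those cells, Cxcl12 in MGJ2 rested on few cells. The endothelial-like class stood at 803 CPM (721 to 892), but 194 of its 348 UMIs lay in 1 of 50 cells, and without that cell the level was 394 CPM. The chondrocyte-like class stood at 41.2 CPM, of which 143 of 168 UMIs lay in 1 cell, and without it the level was 6.16 CPM. In MGJ the same check on the endothelial-like class, where 1 cell held 110 of 490 UMIs, moved the level from 205 to 161 CPM. All blood classes of 50 cells or more in MGJ2 stood at or below 1.34 CPM.

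**Figure D1:**
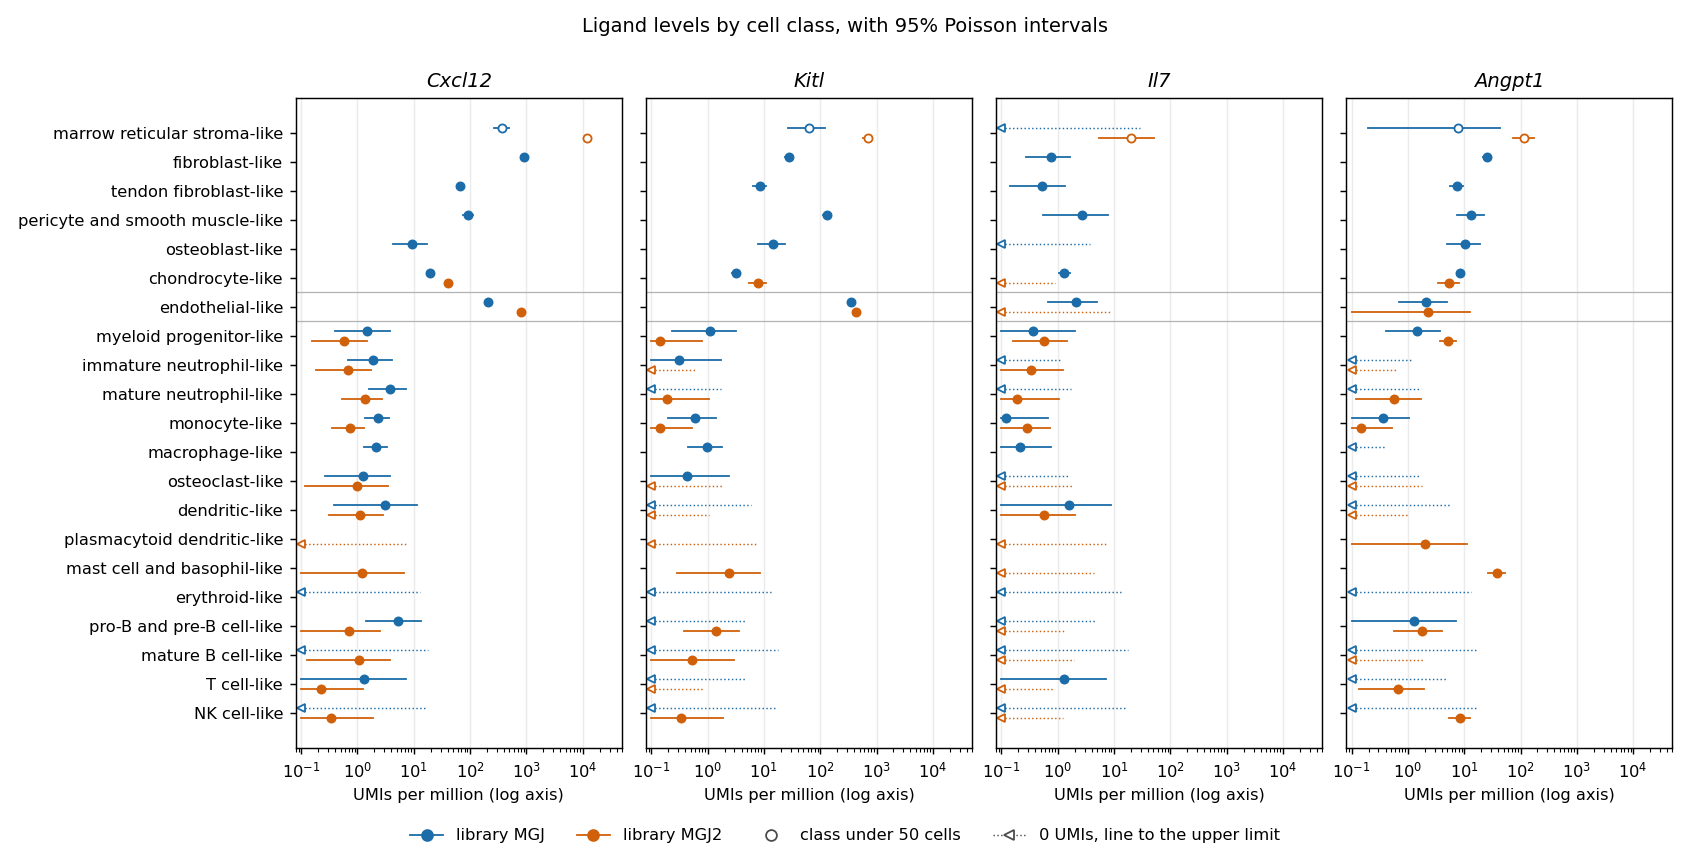
Levels of the 4 ligands in each class, in UMIs per 1000000 on a log axis, with MGJ and MGJ2 as separate points and 95% Poisson intervals as bars. Open circles are classes of under 50 cells. Triangles near the left edge are classes with 0 UMIs, and a dotted line runs from each to its upper limit. Cxcl12 is highest in fibroblast-like cells of MGJ (924 CPM) and in the 18 marrow reticular-like cells of MGJ2 (11815 CPM), and Kitl is high in endothelial-like cells of both libraries.

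Kitl, the Kit ligand gene, had its largest share of UMIs in endothelial-like cells in both libraries, although in MGJ2 the stromal classes together held 48.8%. In MGJ that class stood at 359 CPM (335 to 384), with a UMI in 144 of 251 cells, and held 54.0% of the gene's 1588 UMIs. The pericyte and smooth muscle-like class was next at 132 CPM (112 to 155), with a UMI in 70 of 136 cells, and fibroblast-like cells stood at 27.6. Osteoblast-like cells at 14.3 CPM and tendon fibroblast-like cells at 8.43 were not told apart, and chondrocyte-like cells stood at 3.19. Vessel lining and vessel wall thus read higher than each of the other classes of 50 cells or more in this library. In MGJ2 the endothelial-like class stood at 441 CPM (381 to 508), with a UMI in 24 of 50 cells, and held 46.6% of 410 UMIs. The 18 marrow reticular-like cells held another 33.7%, at 694 CPM (583 to 820), with a UMI in 16 of the 18, all of which also had Cxcl12. The 7 pericyte and smooth muscle-like cells of that library held 22 Kitl UMIs, 11 of them in 1 cell, and chondrocyte-like cells stood at 7.85 CPM.

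Il7, the lymphoid growth factor gene, was close to the limit of detection. MGJ held 115 UMIs of it, 79 of them (68.7%) in 74 chondrocyte-like cells at 1.31 CPM (1.03 to 1.63), and the highest level, 2.68 CPM in pericyte and smooth muscle-like cells, came from 3 UMIs. No 2 neighbouring classes in the order were told apart in either library. MGJ2 held 17 Il7 UMIs, of which 4 lay in 3 of the 18 marrow reticular-like cells, 4 in myeloid progenitor-like cells and 4 in monocyte-like cells. The 160 chondrocyte-like cells there held 0, with an interval of 0 to 0.905 CPM.

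Angpt1, the TIE2 ligand gene, had its highest level in MGJ, among classes of 50 cells or more, in fibroblast-like cells, at 25.1 CPM (21.8 to 28.8), while chondrocyte-like cells, being many, held 60.5% of its 841 UMIs at 8.42 CPM. Pericyte and smooth muscle-like cells stood at 13.4 CPM, osteoblast-like cells at 10.2 and tendon fibroblast-like cells at 7.37. In MGJ2 the order had a blood class at the head of the classes of 50 cells or more. Mast cell and basophil-like cells stood at 38.2 CPM (26.1 to 53.9), with 32 UMIs in 20 of 106 cells, followed by NK cell-like cells at 8.46, chondrocyte-like cells at 5.40 and myeloid progenitor-like cells at 5.21. The 18 marrow reticular-like cells held 23 Angpt1 UMIs in 12 cells, at 116 CPM (73.4 to 174). MGJ had only 6 mast cell and basophil-like cells, with 3 UMIs.

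**Figure D2:**
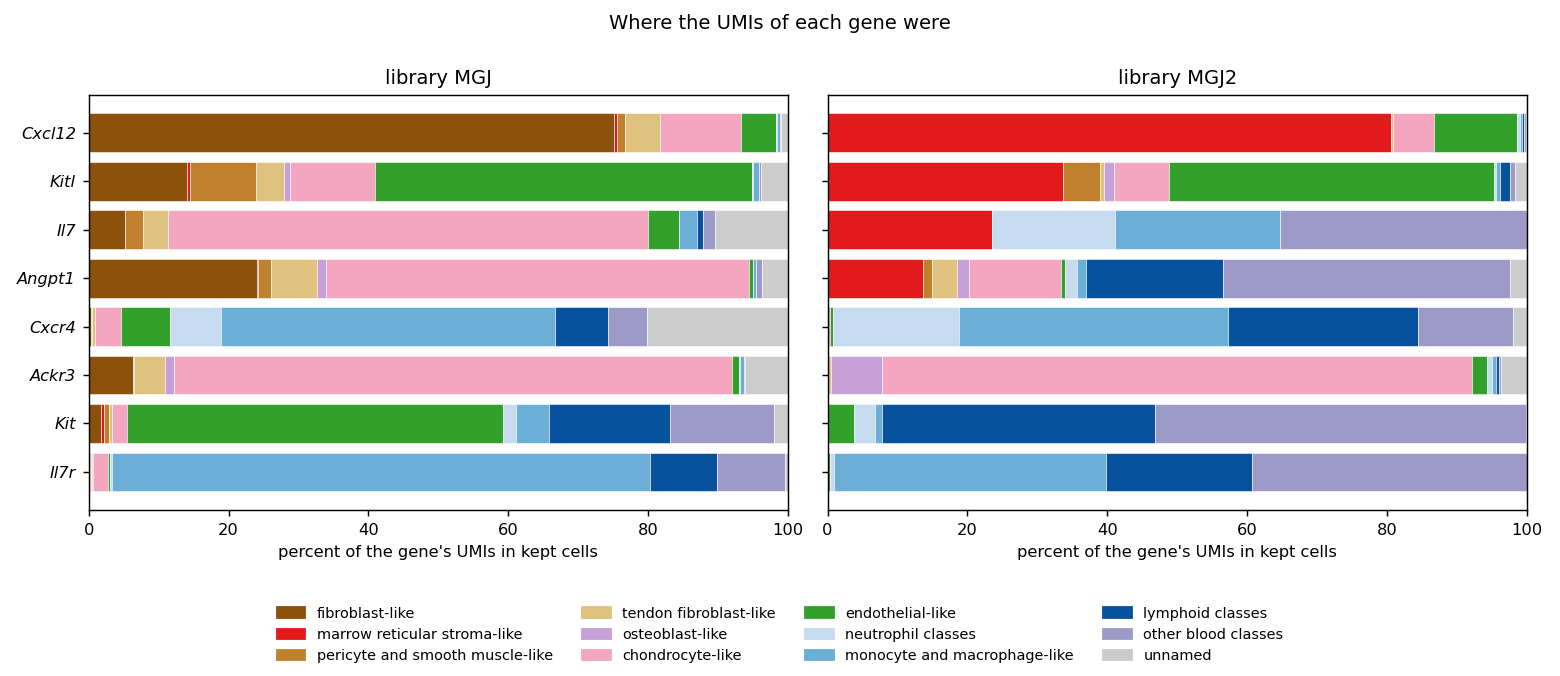
Share of the UMIs of each gene, in percent, that each class held, as stacked bars for MGJ and MGJ2. The 18 marrow reticular-like cells hold 80.6% of the Cxcl12 UMIs of MGJ2, fibroblast-like cells hold 75.1% of those of MGJ, and chondrocyte-like cells hold 79.7% and 84.4% of the Ackr3 UMIs.

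Set against all blood classes together, the ligands read higher in the stromal classes. Over all genes with at least 50 UMIs in the 2 sets, 30.6% of 14304 genes in MGJ had a stromal level at least 2 times the blood level, and 21.2% of 12902 genes in MGJ2 did. All 4 ligands passed that ratio in MGJ, and in MGJ2 all 3 with enough UMIs did, Il7 being under the limit. The median log2 ratio of the ligands tested was 4.30 in MGJ, where all genes had 0.11, and 7.44 in MGJ2, where all genes had -0.26.

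Cxcl12 stood at 118 CPM in stromal and 2.19 in blood classes of MGJ, a ratio of 53.9 (42.5 to 69.5), and the ratio in MGJ2 was 693 (504 to 982). Without the 18 marrow reticular-like cells the latter was 50.9 (35.7 to 74.3), with 143 of the 168 UMIs of chondrocyte-like cells in 1 cell, and with the top cell of each class also left out it was 11.3 (6.27 to 20.4). For Kitl the ratio was 13.5 (8.60 to 22.6) and 174 (97.3 to 342), the latter becoming 56.1 without those cells. For Angpt1 it was 28.6 (15.9 to 57.4) and 5.46 (3.88 to 7.61), and for Il7 6.07 (2.68 to 17.0) and 3.21 (0.762 to 10.4), an interval that takes in 1. Both MGJ2 ratios thus rested largely on 18 cells.

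Kitl read higher in endothelial-like cells than in the stromal classes together in both libraries and under each alternative, while for Cxcl12 the order turned with the stromal cells counted. Stromal over endothelial-like gave 0.0231 (0.0208 to 0.0256) for Kitl in MGJ and 0.0920 (0.0750 to 0.113) in MGJ2. For Cxcl12 it gave 0.576 (0.526 to 0.632) and 0.637 (0.570 to 0.715). In MGJ2 that was 512 CPM in stromal against 803 in endothelial-like cells, and the 394 CPM left without 1 endothelial-like cell lay below the stromal level. That stromal level included 2348 UMIs of the 18 marrow reticular-like cells, out of 2526. Without chondrocyte-like cells the Cxcl12 ratio was 2.21 (2.02 to 2.43) in MGJ and 3.42 (3.05 to 3.84) in MGJ2. Without the marrow reticular-like cells and the top cell of each class it was 0.0154 in MGJ2, so no direction is drawn from it. Angpt1 went the other way in MGJ, with 4.84 (2.06 to 14.9), and in MGJ2 its interval took in 1, from 0.847 to 198.

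**Figure D3:**
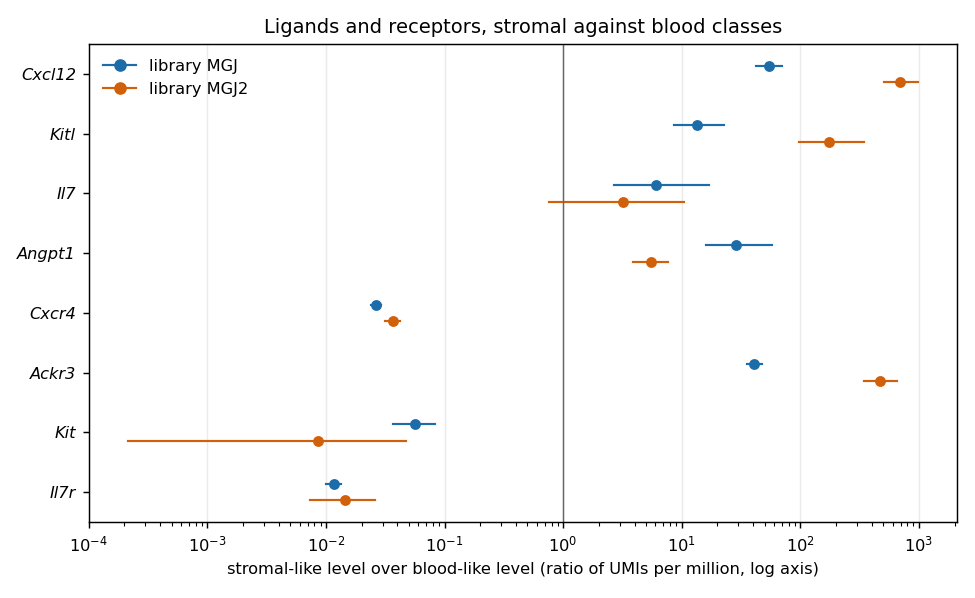
Ratio of the stromal level to the blood level of each of the 8 genes, on a log axis, with MGJ and MGJ2 as separate points and exact 95% intervals as bars; the line at 1 marks equal levels. The ligands lie above 1, Il7 of MGJ2 with an interval across it, and among the receptors Ackr3 lies above 1 while Cxcr4, Kit and Il7r lie below it.

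Of the 4 receptors, Cxcr4, Kit and Il7r read higher in blood than in stromal classes in both libraries, and Ackr3 read higher in stromal classes in both. A blood level of at least 2 times the stromal level was found for 21.2% of all genes tested in MGJ and 29.3% in MGJ2, and for 3 of the 4 receptors in each. The median log2 ratio of stromal over blood level of the 4 receptors was -4.69 in MGJ and -5.44 in MGJ2.

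Cxcr4, the signalling receptor of CXCL12, was highest in NK cell-like cells in both libraries and was read from every blood class of 50 cells or more. In MGJ the NK cell-like class stood at 686 CPM (580 to 806), mature B cell-like cells at 530, T cell-like cells at 355 and macrophage-like cells at 316, the last of which held 30.4% of its 9710 UMIs. Pro-B and pre-B cell-like cells at 277 CPM, mature neutrophil-like cells at 242 and monocyte-like cells at 204 lay below them. At the low end of the blood classes stood immature neutrophil-like cells at 59.8 CPM and myeloid progenitor-like cells at 41.7, while the stromal classes of 50 cells or more ranged from 3.84 to 8.95. The low-UMI clusters left unnamed, led by neutrophil genes, held 870 and 1059 Cxcr4 UMIs at 204 and 309 CPM.

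In MGJ2 the NK cell-like class stood at 1879 CPM (1830 to 1929), then mature neutrophil-like cells at 1543, monocyte-like cells at 1469, mature B cell-like cells at 1456 and mast cell and basophil-like cells at 1193. Monocyte-like cells held 38.1% of its 53246 UMIs. Immature neutrophil-like cells at 270 CPM, osteoclast-like cells at 268 and myeloid progenitor-like cells at 248 were again low among the blood classes. Chondrocyte-like cells stood at 40.7 CPM. In all 12 classes with 50 cells in both libraries the Cxcr4 level was higher in MGJ2, by 1.87 to 7.19 times, chondrocyte-like cells among them. Of the same 12 classes, Cxcl12 was higher in MGJ2 in 4, Kitl in 6, Il7 in 4 and Angpt1 in 6. Ackr3 was higher there in 2 of them, Kit in 7 and Il7r in 4. Over all kept cells Cxcr4 stood at 77.3 CPM in MGJ and 921 in MGJ2. How many of all genes share a direction over the 12 classes was not counted, so nothing is read from the Cxcr4 direction. When each cell was thinned to 1000 UMIs, 53.6% of NK cell-like cells of MGJ and 82.0% of those of MGJ2 had a Cxcr4 UMI. The shares were 0.493% and 5.52% in chondrocyte-like cells, whose median depths of 21041 and 25920 UMIs before thinning exceeded the 2927 and 3827 of the NK cell-like cells.

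Within lineages Cxcr4 was lower in the earlier stage. Immature over mature neutrophil-like cells gave 0.247 (0.208 to 0.292) in MGJ and 0.175 (0.166 to 0.184) in MGJ2, and pro-B and pre-B over mature B cell-like cells gave 0.523 (0.414 to 0.665) and 0.465 (0.439 to 0.493). The blood over stromal ratio was 37.5 (34.0 to 41.3) and 27.4 (23.7 to 31.9). Endothelial-like cells also had the receptor, at 287 CPM (266 to 310) with a UMI in 80 of 251 cells in MGJ. Their level in MGJ2 was 538 CPM, or 364 without 1 cell that held 88 of 233 UMIs. Endothelial-like over blood was 1.35 (1.24 to 1.46) in MGJ, turning to 0.620 with every cell weighted equally, and 0.535 (0.468 to 0.608) in MGJ2. Of the 251 endothelial-like cells of MGJ, 84 had Cxcl12, 80 had Cxcr4 and 41 had both, where the separate shares multiply to 26.8. Of the 50 of MGJ2, 6 had both, against 4.62. The part of cell depth and of remaining doublets was not tested.

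**Figure D4:**
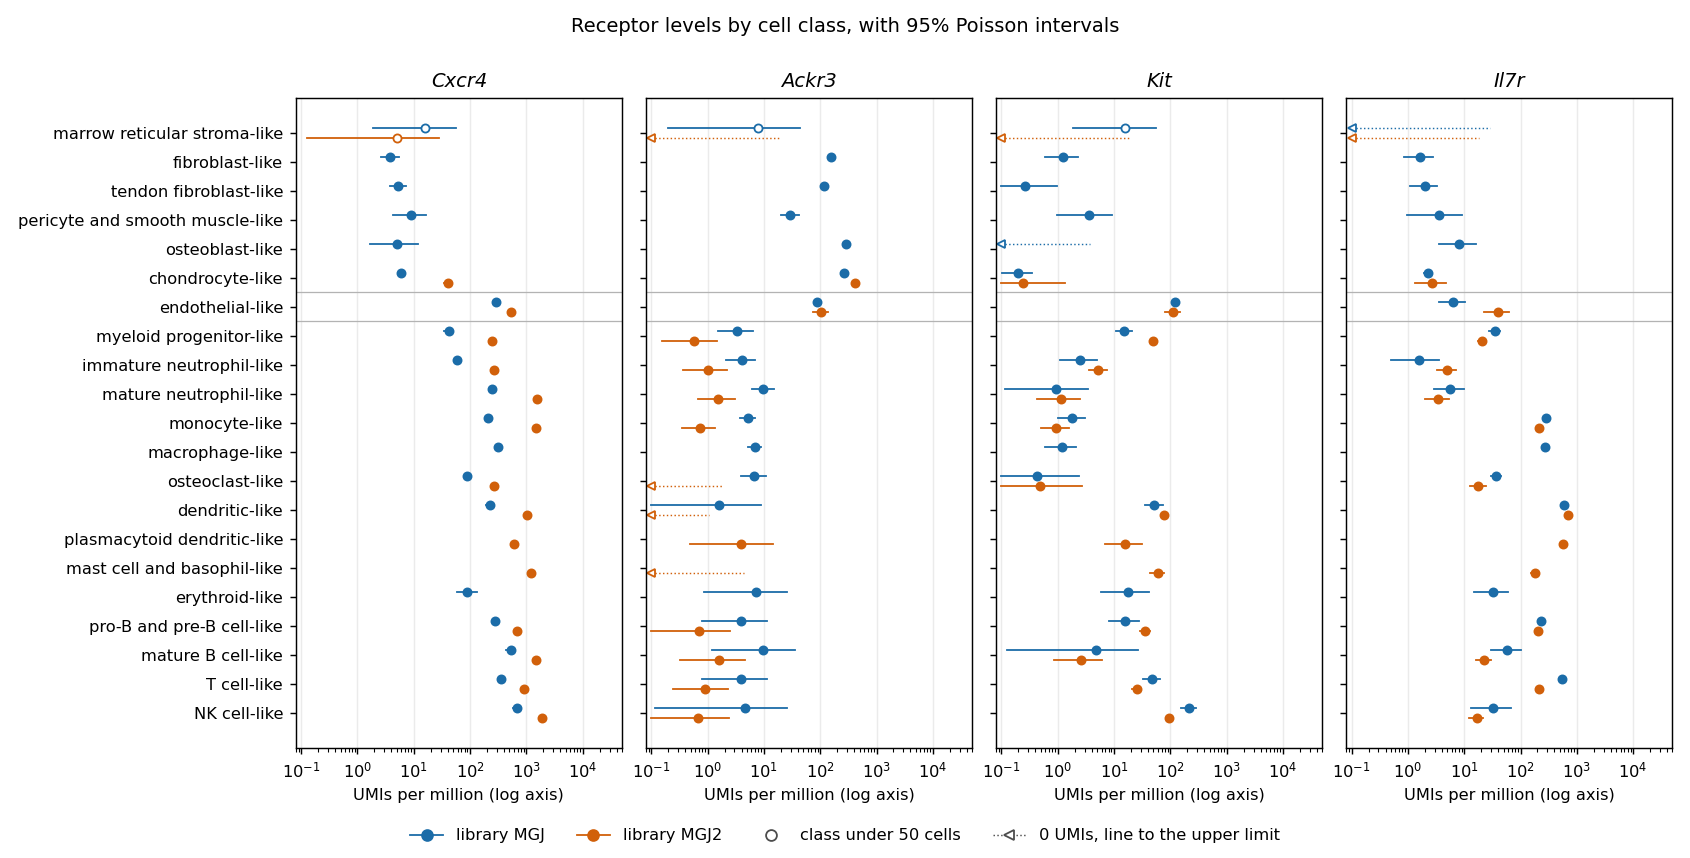
Levels of the 4 receptors in each class, in UMIs per 1000000 on a log axis, drawn as for the ligands. Cxcr4 is highest in NK cell-like cells (686 and 1879 CPM), Ackr3 is high in chondrocyte-like cells (264 and 422 CPM), Kit is high in NK cell-like and endothelial-like cells, and Il7r is highest in dendritic-like cells (602 and 700 CPM).

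Ackr3, the scavenging receptor of CXCL12, had most of its UMIs in chondrocyte-like cells and was also read from other stromal classes. In MGJ chondrocyte-like cells stood at 264 CPM (260 to 268), with a UMI in 2295 of 2886 cells, and held 79.7% of 20019 UMIs. Osteoblast-like cells, at 283 CPM (250 to 318), were not told apart from them. Fibroblast-like cells followed at 156 CPM, tendon fibroblast-like cells at 116, endothelial-like cells at 88.0 and pericyte and smooth muscle-like cells at 29.5, and no blood class of 50 cells or more passed 9.83. In MGJ2 chondrocyte-like cells stood at 422 CPM (403 to 443) and held 84.4% of 2040 UMIs, endothelial-like cells stood at 102, or 77.7 without 1 cell, and the 17 osteoblast-like cells held 148 UMIs. The 18 marrow reticular-like cells, which held most Cxcl12 there, had 0 Ackr3 UMIs.

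Blood over stromal was 0.0244 (0.0210 to 0.0283) in MGJ and 0.00214 (0.00154 to 0.00291) in MGJ2. Endothelial-like over blood was 15.3 (12.5 to 18.8) and 124 (79.6 to 195), so Ackr3 was read from vessels as well as cartilage and nearly absent from blood cells. Of the 481 fibroblast-like cells of MGJ, 442 had Cxcl12, 300 had Ackr3 and 282 had both, near the 276 that the separate shares multiply to. Of the 2886 chondrocyte-like cells, 2295 had Ackr3, 244 had Cxcl12 and 187 had both, near the 194 from the separate shares.

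Among chondrocytes, Ackr3 and Cxcl12 were highest in different sub-clusters. The 2 sub-clusters led by Col10a1, the collagen of hypertrophic cartilage, gave together an Ackr3 ratio to the other chondrocyte-like cells of 1.89 (1.83 to 1.95) in MGJ and 1.84 (1.67 to 2.04) in MGJ2. The larger of them, led also by Aldh1a3, carried this ratio, at 464 and 607 CPM, and the smaller, led also by Pcsk6, stood at 202 and 258 CPM beside 224 and 292 in the other chondrocyte-like cells. For Cxcl12 the same ratio was 0.527 (0.436 to 0.632) in MGJ, and in MGJ2 it was 0.0272, from 5 against 163 UMIs of which 143 lay in 1 cell. Within MGJ, Ackr3 ran from those 464 CPM, and 366 in the sub-cluster led by Slurp1 and Krt16, down to 80.3 in that led by Smim5 and Rtl3. Cxcl12 was highest in the sub-cluster led by Serpine2, Tnc and Wnt7b, at 84.9 CPM, then in the one led by the division genes Depdc1a and Pbk, at 65.1, and in the smaller Col10a1-led one, at 46.2. The other 7 sub-clusters lay between 1.76 and 4.75 CPM. These Cxcl12 levels rest on few cells: of the 2886 chondrocyte-like cells of MGJ, 244 had a UMI. Of the 1152 UMIs, 50% lay in 19 cells and 102 in 1 cell. The part of remaining doublets was not tested. For Angpt1 the 2 Col10a1-led sub-clusters of MGJ together gave 0.607 (0.461 to 0.787), with 4.55 CPM in the larger and 11.0 in the smaller beside 9.12 in the others, and in MGJ2 the interval took in 1. The sub-clusters were made from these cells without the 8 genes.

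**Figure D5:**
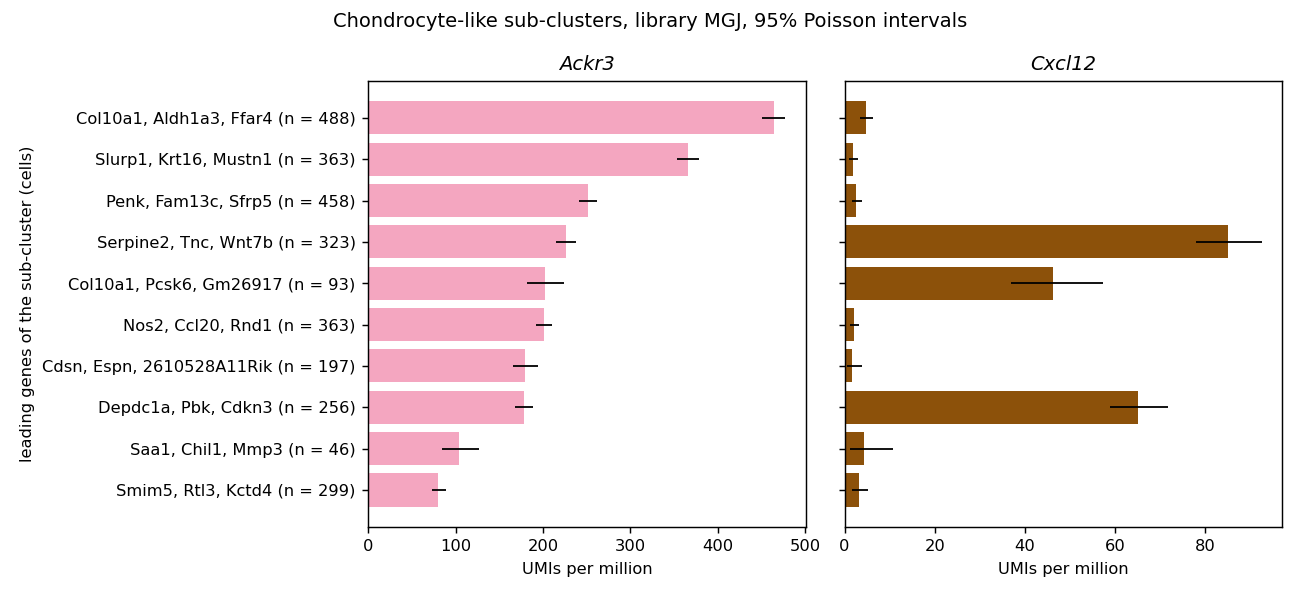
Levels of Ackr3 and Cxcl12, in UMIs per 1000000 from 0, in the chondrocyte-like sub-clusters of MGJ with at least 20 cells, each named by its leading genes, with 95% Poisson intervals. Ackr3 is highest in the sub-cluster led by Col10a1 and Aldh1a3 (464 CPM), where Cxcl12 is at 4.75 CPM, and Cxcl12 is highest in that led by Serpine2 and Tnc (84.9 CPM).

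Kit, the receptor of Kit ligand, had its 2 highest levels in NK cell-like and endothelial-like cells in both libraries. In MGJ NK cell-like cells stood at 215 CPM (157 to 286), with 46 UMIs in 26 of 70 cells, and endothelial-like cells at 123 CPM (110 to 138), with a UMI in 83 of 251 cells and 53.7% of the 547 UMIs. Dendritic-like cells at 51.9 CPM and T cell-like cells at 47.2 were not told apart, and myeloid progenitor-like cells stood at 15.1. In MGJ2 endothelial-like cells stood at 111 CPM (81.7 to 147), or 75.3 without 1 cell, and NK cell-like cells at 94.4 (83.7 to 106), a pair not told apart. Dendritic-like cells stood at 78.5 CPM there, mast cell and basophil-like cells at 59.6 and myeloid progenitor-like cells, which held 26.7% of the 1277 UMIs, at 49.3.

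Kit was higher in myeloid progenitor-like cells than in neutrophil-like cells in both libraries. Myeloid progenitor-like over all neutrophil-like cells gave 8.10 (3.99 to 18.1) in MGJ and 14.8 (10.5 to 21.4) in MGJ2. Pro-B and pre-B over mature B cell-like cells gave 13.4 (5.57 to 42.3) in MGJ2, and in MGJ 12 UMIs against 1 gave 3.21 with an interval from 0.476 to 137. Stromal cells held 30 and 1 Kit UMIs in the 2 libraries. Blood over stromal was 17.9 (12.1 to 27.1) in MGJ and 118 (21.1 to 4651) in MGJ2, and endothelial-like over blood was 18.02 (15.05 to 21.6) and 4.65 (3.41 to 6.20). Of the 251 endothelial-like cells of MGJ, 144 had a Kitl UMI, 83 a Kit UMI and 66 both, where the separate shares multiply to 47.6, and of the 50 of MGJ2 11 had both, against 7.20. Deeper cells and remaining doublets can hold both more often, and their part was not tested.

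Il7r, the receptor chain shared by IL-7 and TSLP, was highest in dendritic-like cells in both libraries. In MGJ they stood at 602 CPM (544 to 666) and were not told apart from T cell-like cells at 541 (490 to 596). Monocyte-like cells at 287 CPM and macrophage-like cells at 270, with 37.2% and 39.6% of the 6356 UMIs, held most of it by number, and pro-B and pre-B cell-like cells stood at 236. In MGJ2 dendritic-like cells stood at 700 CPM (672 to 728) and plasmacytoid dendritic-like cells at 569. Monocyte-like cells at 216 CPM, T cell-like cells at 213 and pro-B and pre-B cell-like cells at 205 were each not told apart from the next there. NK cell-like cells were low in both, at 32.7 and 16.6 CPM.

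Il7r was lower in the later of the B cell classes. Pro-B and pre-B over mature B cell-like cells gave 4.04 (2.26 to 7.96) in MGJ and 9.31 (6.80 to 13.1) in MGJ2, and T over mature B cell-like cells gave 9.28 (5.25 to 18.1) and 9.67 (7.10 to 13.5). Blood over stromal was 86.2 (74.3 to 101) and 68.5 (38.2 to 137). In endothelial-like cells 15 UMIs were found in MGJ and 17 in MGJ2, 11 of the latter in 1 cell. The T cell-like classes also carried genes of type 2 innate lymphoid cells, which use IL-7: of the 7 listed, Il5 had 81 and 573 UMIs, Il1rl1 97 and 322, Gata3 71 and 626, Rora 628 and 1831, Areg 332 and 59, Il13 4 and 66, and Il17rb 2 and 13. In the NK cell-like classes Il5 and Il13 were at 0 and Il1rl1 had 3 and 11 UMIs, but Gata3 of MGJ2 stood at 139 CPM in both classes. Areg of MGJ2 was higher in dendritic-like cells, at 124 CPM, than in T cell-like cells, at 13.1. The part of such cells in the Il7r and Kit levels of the T cell-like classes was not tested.

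The other genes of these pathways divided in both directions, and their counts are read beside the 30.6% and 21.2% of all genes that passed toward stroma in MGJ and MGJ2, the 21.2% and 29.3% that passed toward blood, and the median log2 ratios of 0.11 and -0.26 over all genes. Of the 6 further genes of the CXCL12 axis, all tested in both libraries, 1 in MGJ and 2 in MGJ2 passed the ratio of 2 toward stroma and 2 in each toward blood, with a median log2 ratio of -0.36 and -0.57. Cxcl14, a chemokine of fibroblasts, stood at 708 CPM in fibroblast-like cells of MGJ, and its stromal over blood ratio was 26.3 (22.3 to 31.3) and 69.8 (44.9 to 113). Dpp4, a protease that cuts CXCL12, went toward blood, with a blood over stromal ratio of 9.50 and 11.9, and was highest in pro-B and pre-B cell-like cells at 59.9 and 82.7 CPM. Arrb2, a beta-arrestin that takes chemokine receptors off the cell surface, went the same way at 33.3 and 19.1. Nothing is called particular to a list from these counts.

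Of the 7 further genes of the KIT axis and progenitor cytokines, 5 were tested in MGJ, with 1 toward stroma and 2 toward blood, and 4 in MGJ2, with 0 and 3. Flt3, the receptor tyrosine kinase of dendritic and lymphoid precursors, stood at 47.2 CPM in dendritic-like cells of MGJ and at 355 in plasmacytoid dendritic-like cells of MGJ2. Csf1, the macrophage growth factor gene, was highest in mature neutrophil-like cells, at 381 and 352 CPM. Il34, the other ligand of its receptor, was highest in pericyte and smooth muscle-like cells of MGJ at 44.7 CPM. The median log2 ratio was -0.96 and -2.50.

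Of the 9 further genes of the IL-7 axis, 2 in MGJ and 1 in MGJ2 passed toward stroma and 4 and 5 toward blood, with a median log2 ratio of -0.81 and -1.99. Il2rg, the shared chain that pairs with IL-7 receptor, stood at 191 CPM in T cell-like cells of MGJ and at 168 in mature B cell-like cells of MGJ2, with a blood over stromal ratio of 15.05 and 11.2. Tslp, the other ligand of the Il7r chain, was highest in pericyte and smooth muscle-like cells of MGJ at 108 CPM. Socs2, an inhibitor of cytokine signalling, went toward stroma, with 103 and 157 CPM in chondrocyte-like cells.

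Of the 10 further angiopoietin and adhesion genes, 8 were tested in MGJ, with 5 toward stroma and 2 toward blood, and 7 in MGJ2, with 5 and 1. The median log2 ratio was 1.04 and 1.44. Tek and Tie1, the receptor of angiopoietin 1 and its partner, were read from endothelial-like cells, Tek at 92.2 and 166 CPM and Tie1 at 200 and 339 CPM. Vcam1, the adhesion molecule that holds blood cells to stroma, stood at 447 CPM in fibroblast-like cells of MGJ and at 383 and 464 CPM in endothelial-like cells of the 2 libraries. Itga4, which encodes a chain of its receptor, went toward blood, with a blood over stromal ratio of 25.7 and 22.2 and the highest level in NK cell-like cells of MGJ, at 261 CPM.

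Across classes the genes most alike to each of the 8 were found among 10090 genes by Pearson's r of log2(CPM + 10), taken over 18 classes in MGJ and 14 in MGJ2 and averaged. This describes the classes, which share a library and differ in depth, and carries no test. Cxcl12 was most like Lamb1 (laminin beta 1), at a mean r of 0.98, Fbln2 and Tfpi2. In MGJ2 this left out the 18 marrow reticular-like cells, a class under 50 cells that held 2348 of 2914 Cxcl12 UMIs. In the endothelial-like class there, 194 of 348 UMIs lay in 1 cell. Kitl was most like the endothelial adhesion receptor gene Adgrf5 at 0.98 and the basement membrane collagen genes Col4a2 and Col4a1 at 0.97 each. Ackr3 was most like Fkbp10, Sparc and Amotl2 at 0.97 each, Cxcr4 most like H2-D1 at 0.91, Dazap2 and Slu7. Likeness was lower for Il7r (Cytip at 0.82, Necap2 and Cd48), Angpt1 (D830025C05Rik at 0.82, Peg10 and Slc7a6), Kit (Ctla2a at 0.79, Pecam1 and Serpinb9) and Il7 (Ptgir at 0.64, Lrrc32 and Cxcl10).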

How the data were processed

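Both libraries were made with the Chromium Single-Cell 3′ kit (V3), aimed at 5000 cells each. The authors deposited raw UMI counts per gene and barcode, which the matrix header gives as Cell Ranger 4.0.0 output; GRCm38 is the build and Seurat a further tool in the submitters' processing notes. No depth correction had been applied to the deposited counts, which totalled 135304426 UMIs over 14295 barcodes (MGJ) and 61130834 over 8009 (MGJ2).

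Barcodes with under 200 genes (371 and 70) or over 20% mitochondrial UMIs (464 and 133) were left out. Doublets were called with Scrublet in scanpy 1.11.5; the automatic threshold marked 0 cells of MGJ, so a score of 0.25 was set for both after the scores were seen, which removed 513 (3.81%) and 238 (3.05%). The kit's usual rate would give 10.8% and 6.24%, so doublets remain. Cells of both libraries were clustered together on 2000 variable genes without the 8 genes (30 components, 15 neighbours, leidenalg 0.10.2, resolution 1) and clusters were named from 28 marker lists, each name meaning "-like". The 32 genes of the pathway lists were also kept out of the clustering. A cluster needed at least 20 cells, a marker score of at least 1 and at least 3 detected markers. It was left unnamed when another list had more markers than its own among the 10 leading genes. That left out 251 cells whose best list was chondrocyte. Clusters of 128 and 93 cells whose best list was fibroblast were left unnamed in the same way. A median depth under that of its sample divided by 3 left a cluster unnamed when none of its own markers led it. After the leading genes of clusters were seen, and before levels of the 8 genes by class were computed, stromal clusters were clustered again and hypertrophic markers were counted as chondrocyte markers. Stromal classes are chondrocyte, osteoblast, fibroblast, tendon fibroblast, marrow reticular, and pericyte and smooth muscle; blood classes are all haematopoietic ones with osteoclasts; unnamed clusters are in neither.

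Counts were summed per class and library. With 1 library of unknown day in each case there was no test and no p-value. Genes named are the 8, a part of the 32 genes in 4 pathway lists, markers, sub-cluster leading genes and, for each of the 8, the 3 genes most alike over classes with at least 200 UMIs in each library. Pathway genes not named are covered only by the counts of their list. One pathway gene, which had too few UMIs to be tested, is not reported here. The 8 genes and the lists were chosen with earlier results of these data known. In all, 15 alternatives were run. Ensembl identifiers of 32158 of 32285 genes (99.6%) matched the annotation used for positions; promoter sequences are RefSeq's. Python 3.11.15, numpy 2.4.6, scipy 1.17.1, pandas 2.3.3, scikit-learn 1.9.0, igraph 0.11.9 and matplotlib 3.10.9 were used. The steps were tested on simulated data.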

Additional observations from a re-analysis of the deposited data

Results flagged for a closer look

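Barcodes left out for few genes, mitochondrial share or a doublet call (1348 in library MGJ, 441 in library MGJ2) also held UMIs of these genes, and 12 levels there lay above what 3 counts would give. In library MGJ these were Cxcl12 at 98.4 CPM, Kitl at 18.6, Angpt1 at 8.515, Cxcr4 at 79.6, Ackr3 at 113, Kit at 6.46 and Il7r at 52.0. In library MGJ2 they were Cxcl12 at 9.91 CPM, Cxcr4 at 1053, Ackr3 at 7.51, Kit at 20.4 and Il7r at 115. Of the removed barcodes, 513 and 238 were doublet calls. The levels mix classes, since these barcodes were not named, and were compared with nothing.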

How the results depend on the processing

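Under the alternatives, 125 counts stayed within 1.5 times of the main count and 11 moved further. Of single ratios, 503 stayed within the main interval, 168 left it and 6 changed direction. Those 6 were Cxcl12 stromal over endothelial-like, at 2.21 in MGJ without chondrocyte-like cells and in MGJ2 at 3.42 without chondrocyte-like cells, 3.04 with every cell weighted equally, 1.69 when each cell took its highest marker score and 1.13 (0.958 to 1.34) without the top cell of each class, and Cxcr4 endothelial-like over blood in MGJ, at 0.620 with every cell weighted equally. For 30 values the lower group had 0 UMIs and no ratio was given. Counting genes from 1 UMI instead of 50 gave 9305 genes toward stroma in MGJ and 6467 in MGJ2 (4380 and 2736 at 50) and 5025 and 7292 toward blood (3039 and 3778). The number of the 8 genes that kept their highest class was 4 in MGJ and 4 in MGJ2 when each library was clustered alone, 5 in MGJ with every cell weighted equally, and in MGJ2 4 at a limit of 10% mitochondrial UMIs, 5 when each cell took its highest marker score and 5 without cells under 1000 UMIs. Lineage ratios whose interval left out 1 numbered 5 in MGJ when clustered alone. The cause was not tested. Cxcr4 endothelial-like over stromal in MGJ2 was 2.62 with every cell weighted equally. Cxcl12 was highest in fibroblast-like cells of MGJ in 13 of 13 settings, and Cxcr4 in NK cell-like cells in 12 and 13. Among classes of 50 cells or more, Kitl in MGJ2 was highest in endothelial-like cells in 10 settings and in chondrocyte-like cells in 3. The endothelial-like class of MGJ2 had 50 cells in the main setting, and a smaller class does not enter this order. Kitl stromal over endothelial-like in MGJ2 was at most 0.444 under the alternatives, so chondrocyte-like cells are not read as the higher class. Leaving out the marrow reticular-like cells, the top cell of each class, or both was added after seeing the data. Il7 (115 and 17 UMIs) and stromal Kit (30 and 1) rest on few counts. No paired analysis was possible because each library is a single sample whose labels give no group.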
